A study of Mus musculus with 6 samples.

Results

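Müller glia were followed in the developing mouse retina through 10 genes commonly used to mark them: Rlbp1, Slc1a3, Glul, Kcnj10, Aqp4, Slc14a1, Apoe, Clu, Vim and Sox9. A poly(A) site was taken as theirs when its 3′ edge lay inside the gene in GENCODE M21, or up to 1000 bases past its end, on the same strand. Each of the 10 genes had a site, out of 14408 nuclear genes with one, and together they held 16 of the 32688 sites. The retinas came from C57BL/6J mice at embryonic days E13.5, E15.5 and E18.5 and postnatal days P0, P6 and P21. The labels name no treatment or altered allele and give 1 sample per stage, without saying how many animals it pooled. The assay, PA-seq, primes fragmented RNA with oligo(dT), so that a tag marks the 3′ end of a polyadenylated RNA. The 2 count columns of a stage, whose meaning is not given, were added. No value has a replicate, so intervals for single stages are 95% counting intervals, and tests asked whether a gene followed stage order over the 6 libraries.

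Müller glia span the whole thickness of the retina and are among the last cells that retinal progenitors produce, in the mouse mostly after birth. They clear glutamate released by neurons and turn it into glutamine, carry potassium and water towards the vitreous and the vessels, supply lipoproteins and handle retinoids. Some of these genes are expressed before the cell type exists, since progenitors already make Vim, Sox9 and Slc1a3. Astrocytes also make many of them, including Glul, Aqp4, Apoe, Clu and Vim, and the pigment epithelium also makes Rlbp1.

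Levels are given as CPM (counts of a gene scaled to a common number of gene tags, with library sizes scaled by TMM). The libraries held between 3286158 tags, at P0, and 4656153 tags, at E18.5, and 3 tags corresponded to 0.654 to 0.944 CPM. Transcripts of 11 lens genes summed to 2396 CPM at E15.5 and 2903 CPM at P0, against 215 to 928 CPM at the other stages, so these libraries stood apart. A list of 10 genes of retinal neurons differed between the columns of a stage, with 1531 CPM in the first and 525 CPM in the second at E13.5, 2953 and 451 CPM at E15.5, 1729 and 925 CPM at E18.5, and 3235 and 828 CPM at P0. For this list the columns were closer at P6 and P21, with 4206 and 4392 CPM and with 6466 and 5615 CPM. Results on the Müller glia genes that differ between columns, or without E15.5 and P0, are given as such below.

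In sum, tags of the 10 genes rose from 1221 CPM at E13.5 through 1242, 1297, 1485 and 1732 CPM to 2872 CPM at P21. Their share of gene tags went from 0.120% to 0.280%. At E13.5, E15.5 and E18.5 the first columns summed to 1233, 1365 and 1307 CPM and the second to 1208, 1115 and 1286 CPM. The steady rise of the sum before birth was thus in neither column alone. The most abundant of the 10 genes was Glul at every stage but P6, where Rlbp1 stood first. Kcnj10, Aqp4 and Slc14a1 held the lowest ranks up to P6. In the trend over stage order (edgeR quasi-likelihood test, Benjamini-Hochberg adjusted p of 0.05 or less), 5 genes rose, namely Rlbp1, Slc14a1, Kcnj10, Clu and Apoe. Vim alone fell, and Glul, Slc1a3, Aqp4 and Sox9 did not pass. Over all 14403 genes tested, 17.0% rose and 13.1% fell. At an unadjusted p under 0.05 in that test, 3341 genes rose and 2993 fell, and DESeq2 called 2749 rising and 2228 falling. Among the 10 genes these counts were 7 rising and 1 falling at the unadjusted p, and 6 rising and 1 falling in DESeq2. The median fitted log2 change over the 5 steps was 2.00 for the 10 genes and -0.03 for all genes. In whole tissue, fewer cells of a type and less RNA per cell cannot be told apart. Leaving out E15.5 and P0 left 3 rising genes, without Kcnj10 (adjusted p = 0.0764) and Apoe (adjusted p = 0.0512), and leaving out P21 left 2, Rlbp1 and Slc14a1. Counts over all genes also changed when stages were left out, as given in the last section. These losses are therefore not read as particular to the 10 genes.

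**Figure D1:**
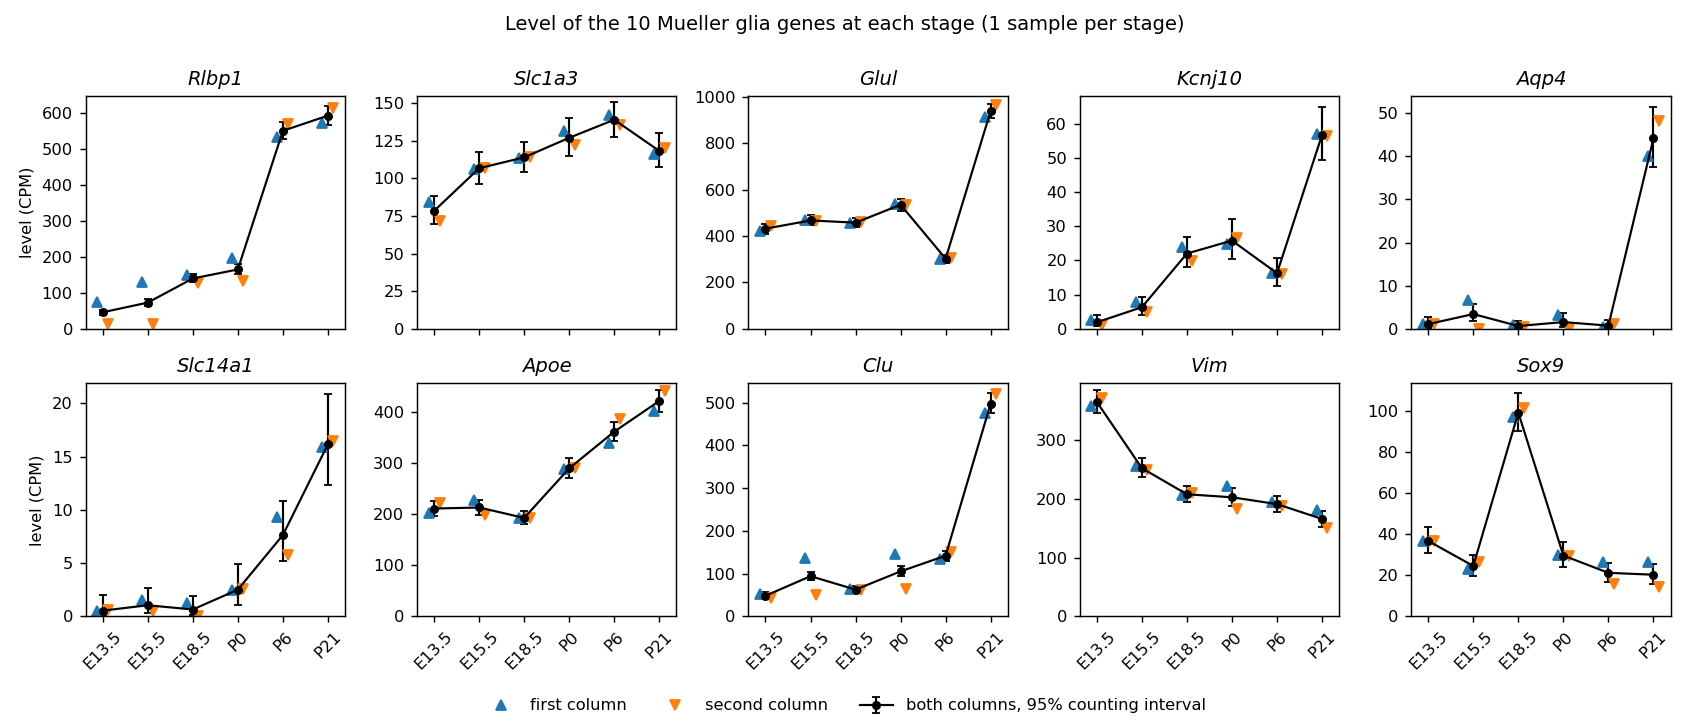
Level in CPM (y axis, linear, from 0) of each of the 10 genes at the 6 stages (x axis). Black points with lines are both columns added, with exact 95% counting intervals, and triangles are the first and the second column. In the sum of both columns the largest step of Rlbp1 was between P0 and P6, Glul, Kcnj10, Aqp4 and Clu stepped up between P6 and P21, and Sox9 stood at 99.0 CPM at E18.5 alone.

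Most of these genes end at a single place. All sites lay in a 3′ UTR except both sites of Aqp4, 2 and 100 bases past the annotated gene end. Sox9, Glul and Aqp4 had several sites, and the other 7 genes had 1 site each. The cleavage machinery recognises a hexamer shortly before the cut, AATAAA in most genes and ATTAAA in fewer. These letters were searched on the transcribed strand in the 40 bases before the site edge, in GENCODE M21 transcripts (mm10). Of 14 sites in annotated transcripts, 8 held AATAAA, 2 held ATTAAA, with both in the window of the distal Sox9 site, and 5, all of Glul, held neither. Over 23140 sites of all genes, 56.8% had AATAAA, 19.1% had ATTAAA (a window can hold both) and 26.5% had neither. The last 75 bases before each searched site matched no other gene at 90% identity over 60 bases. The last 30 bases up to the edge are shown for Rlbp1, whose single site lies exactly at the annotated end, and for the main sites of Sox9 and Glul, whose 3′ ends vary. Capitals mark the hexamer, and AATAAA where both are present.
Rlbp1, chr7:79374870-79374899, minus strand: gcaAATAAAaccgttctttgtcttgtgtca
Sox9 proximal, chr11:112785891-112785920, plus strand: ttttagccgtaATTAAAgaaaaaaaaagtc
Sox9 distal, chr11:112787722-112787751, plus strand: tttacAATAAAtatacattgcattaaagtg
Glul proximal, chr1:153908254-153908283, plus strand: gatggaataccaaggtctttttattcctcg
Glul distal, chr1:153909632-153909661, plus strand: cagcgctTATAAAtcaacctaacatttata
After Glul had shown neither common form, 9 variants that differ from AATAAA by 1 base were searched too. Among all sites, AGTAAA was found at 4.90%, TATAAA at 5.96%, CATAAA at 3.36%, GATAAA at 2.39%, AATATA at 4.12%, AATACA at 3.69%, AATAGA at 1.47%, AATGAA at 3.64% and ACTAAA at 1.85%. The distal site of Glul held TATAAA and its proximal site none of the 11 hexamers, as did 11.3% of all sites. A match is a description of the letters, and a missing match says nothing about how the site is used.

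Rlbp1 encodes the retinaldehyde-binding protein that carries visual chromophore in Müller glia and pigment epithelium. Its level was 46.0, 72.8 and 140 CPM at the embryonic stages, 165 CPM at birth, 550 CPM at P6 and 592 CPM at P21. In the sum of the columns each stage was above the one before it, and the step from P0 to P6 was the largest, 3.33-fold (95% counting interval 3.03 to 3.67). The fitted log2 change was 3.98 ± 0.36 (SE; adjusted p = 0.00231), the smallest p of the 10 genes. The early levels and steps depended on the column. In the second columns the largest step was from E15.5 to E18.5, 9.15-fold against 4.31-fold from P0 to P6, and E15.5 was level with E13.5 (0.989-fold). The first column held 73.8 and 130 CPM at E13.5 and E15.5, where the second held 14.1 and 14.0 CPM. From E13.5 to P21 the fold was therefore 12.9 in the sum, 7.74 by first columns and 43.4 by second columns. Of all genes with at least 100 tags at the stage, 0.355% at E13.5 and 0.801% at E15.5 were 4-fold or more higher in the first column. The list of retinal neurons leaned to the first column at the same stages, and the part of this in the Rlbp1 values was not tested.

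Pigment epithelium markers moved with Rlbp1 in part. Of 6 measured genes of that list, only Ttr, a thyroid hormone carrier, rose (4.41 ± 0.79, adjusted p = 0.00832), from 6.02 to 158 CPM. The list summed to 43.8 to 95.02 CPM up to P0, 166 CPM at P6 and 250.5 CPM at P21, of which Ttr made 86.3 CPM at P6 and 158 CPM at P21. Best1, a defining chloride channel of that epithelium, stood at 3.01 CPM (11 tags) at E13.5, 0.740 CPM (3 tags) at P6 and 2.74 CPM (10 tags) at P21. These levels rest on few tags. Mlana, Tyrp1, Dct and Pmel, all of pigment cells, did not pass, and Rpe65 and Tyr were given no site. Dct had 17.3 CPM at E13.5, 11.3 CPM at P0, 30.6 CPM at P6 and 45.5 CPM at P21, and Pmel had 57.0, 19.8, 41.2 and 33.4 CPM. Mlana had 0.629 CPM (2 tags) at P0 and 3.21 CPM (13 tags) at P6. From P0 to P6, the largest step of Rlbp1 in the sum of columns, Ttr, Dct, Pmel and Mlana were thus higher. Best1 and Tyrp1 were lower. The part of pigment epithelium in the Rlbp1 values was not tested.

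Glutamate handling was represented by Slc1a3 and Glul, which behaved differently from each other. Slc1a3, the main glutamate transporter of Müller glia (GLAST), stood at 78.3 CPM at E13.5, then 107, 114, 127 and 139 CPM, and 118 CPM at P21. Only E13.5 stood below all other stages beyond counting error. Neighbouring later stages had overlapping intervals, although P21 was 0.851-fold of P6 (0.749 to 0.966). Its fitted log2 change was 0.61 ± 0.23 (adjusted p = 0.0842) and did not pass, and both columns of every stage lay within 0.23 of each other on the log2 scale.

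Glul, glutamine synthetase, which turns glutamate into glutamine, was abundant from the start. It stood at 432, 467, 457 and 535 CPM from E13.5 to P0, at 302 CPM at P6 and at 939 CPM at P21. P6 was the lowest stage and P21 the highest, each with an interval apart from all others. The step from P0 to P6 was 0.565-fold (0.525 to 0.609), and that from P6 to P21 3.10-fold (2.91 to 3.32). Both columns gave the same pattern, with 0.562 and 0.569-fold and with 3.03 and 3.18-fold. A straight line over stage order gave 0.75 ± 0.45 (adjusted p = 0.235). Without P6 the trend passed, at 1.10 ± 0.23 (adjusted p = 0.0229), and without P21 it stood at -0.24 ± 0.33 (adjusted p = 0.673).

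The channels and transporters for potassium, water and urea were the lowest of the 10 genes in abundance up to P6. Kcnj10 encodes the inward rectifier Kir4.1, through which Müller glia release potassium. In stage order it stood at 1.92 CPM (7 tags), 6.33, 22.0, 25.8, 16.3 and 56.7 CPM (207 tags). Each stage up to E18.5 was above the one before it. At E15.5 the first column held 7.78 CPM and the second 4.83 CPM. Kcnj10 stood lower at P6 than at P0 (0.631-fold, 0.449 to 0.883), and was 3.49-fold higher at P21 than at P6 (2.63 to 4.67). The fitted log2 change was 3.74 ± 0.87 (adjusted p = 0.0183). The call was lost without E13.5 (adjusted p = 0.0775), without E15.5 (adjusted p = 0.0593) and without P21 (adjusted p = 0.125).

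Aqp4, the water channel of Müller glial endfeet, was high at P21 alone in these libraries. In stage order it had 4, 13, 3, 5, 3 and 161 tags, or 1.10, 3.43, 0.654, 1.57, 0.740 and 44.1 CPM. Levels up to P6 were close to the limit that 3 tags set, and all 13 tags of E15.5 were in the first column. From P6 to P21 the ratio was 59.6 (20.05 to 292), with 3 tags in the denominator. The linear trend did not pass, at 4.77 ± 1.56 (adjusted p = 0.0535). With time counted in days after conception it passed, at 5.07 (adjusted p = 0.0110), and it also passed with DESeq2 (adjusted p = 0.0320). Without P21 it was -1.10 (adjusted p = 0.583). At P21 its sites shared the tags, 88 at the first and 73 at the second, so that 45.3% (Wilson interval 37.8 to 53.1) fell on the distal site.

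Slc14a1, a urea transporter, had 2, 4, 3 and 8 tags from E13.5 to P0, 31 at P6 and 59 at P21. These were 0.548, 1.06, 0.654, 2.52, 7.64 and 16.2 CPM. The embryonic levels overlapped each other within counting error, and P6 and P21 stood above them. The ratio was 3.04 (1.37 to 7.65) from P0 to P6 and 2.12 (1.35 to 3.38) from P6 to P21. At P6 the columns differed, with 9.37 CPM in the first and 5.73 CPM in the second. Its fitted log2 change, 5.28 ± 0.77 (adjusted p = 0.00481), was the largest of the 10 genes and rests on few tags.

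Apoe and Clu encode secreted proteins, apolipoprotein E, which carries lipid between cells, and clusterin, an extracellular chaperone. Apoe stood at 211, 213 and 193 CPM before birth, 290 at P0, 362 at P6 and 422 CPM at P21. The intervals of the 3 embryonic stages overlapped, although E18.5 was 0.904-fold of E15.5 (0.821 to 0.996), and each later stage stood above the one before it. The fitted log2 change was 1.11 ± 0.22 (adjusted p = 0.0114), and the call was also lost without P21 (adjusted p = 0.0765). Microglia also express Apoe. Of the 9 genes of their list, 0 passed in edgeR, 0 had an unadjusted p under 0.05 and 0 passed in DESeq2. They summed to 201 CPM at E13.5, 122 CPM at P0, 236 CPM at P6 and 188 CPM at P21. C1qb, a complement subunit and the most abundant of that list, had 38.9 CPM at E13.5, 32.4 at P0, 53.3 at P6 and 35.9 CPM at P21. The part of microglia in the Apoe values was not tested.

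From E13.5 to P21, Clu stood at 48.5, 94.2, 62.8, 105, 142 and 498 CPM. P21 was above every other stage by 3.50-fold or more (3.19 to 3.86 against P6). The higher values at E15.5 and P0 came from the first column, with 137 and 146 CPM against 49.95 and 63.6 CPM in the second. In the second columns alone the levels ran 44.1, 49.95, 61.1, 63.6, 150 and 521 CPM. The fitted log2 change was 2.89 ± 0.54 (adjusted p = 0.00936), and 1.30 ± 0.38 (adjusted p = 0.0759) without P21.

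Vim and Sox9 are structural and regulatory genes that progenitors share. Vim, the intermediate filament vimentin, of progenitors and glia alike, stood at 365, 253, 208, 203, 191 and 166 CPM. It was lower at each stage than at the one before, within counting error at P0 and P6, and the largest step was the first, 0.691-fold (0.636 to 0.752) from E13.5 to E15.5. The fitted log2 change was -1.003 ± 0.19 (adjusted p = 0.0101). The call was lost without E13.5 (adjusted p = 0.0924), without P21 (adjusted p = 0.0505) and with time in days (adjusted p = 0.0584).

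Sox9, a transcription factor of progenitors that Müller glia keep, stood at 36.7, 24.5, 99.0, 29.6, 21.2 and 20.3 CPM. E18.5 stood alone: it was 4.04-fold (3.22 to 5.10) above E15.5, and P0 was 0.299-fold (0.237 to 0.374) of it. Both columns showed this, with 96.9 and 101 CPM at E18.5. At P6 the first column held 26.2 CPM and the second 15.6 CPM, and at P21 they held 26.3 and 14.2 CPM. The trend over stage order did not pass (-1.18 ± 1.02, adjusted p = 0.404).

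The high value of Sox9 at E18.5 was carried by 1 of its sites. The proximal site, 413 bases past the coding end, held 21.1, 17.4, 20.9, 23.6, 9.12 and 9.04 CPM from E13.5 to P21. The distal site, 2244 bases past the coding end and 9 bases before the annotated gene end, held 15.6, 7.12, 78.1, 5.98, 12.1 and 11.2 CPM. So the proximal site at E18.5 was level with E13.5, and the distal site was 5.003 times its next highest stage. The share of Sox9 tags at the distal site was 42.5%, 29.03%, 78.9% (74.9 to 82.4), 20.2% (13.3 to 29.4), 57.0% and 55.4%. At E18.5 the columns gave 80.3% and 77.3%, and at P0 27.1% and 13.04%. At P6, with 86 tags in all, they gave 69.6% and 33.3%, and at P21, with 74 tags, 60.4% and 46.2%.

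Among 12299 sites with at least 50 tags in a first and in a second column, 8 stood at E18.5 at 3 times every other stage or more in both columns, or 0.0650%. The other 7 were sites of Aspm, Dr1, Dzip3, Efcab14, Mex3d, Xiap and Zfp280d. By the same rule 8 sites stood alone at E13.5, 0 at E15.5, 2 at birth, 18 at P6 and, with Clu among them, 240 at P21. These counts were made, and those genes named, after the Sox9 values had been seen.

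**Figure D2:**
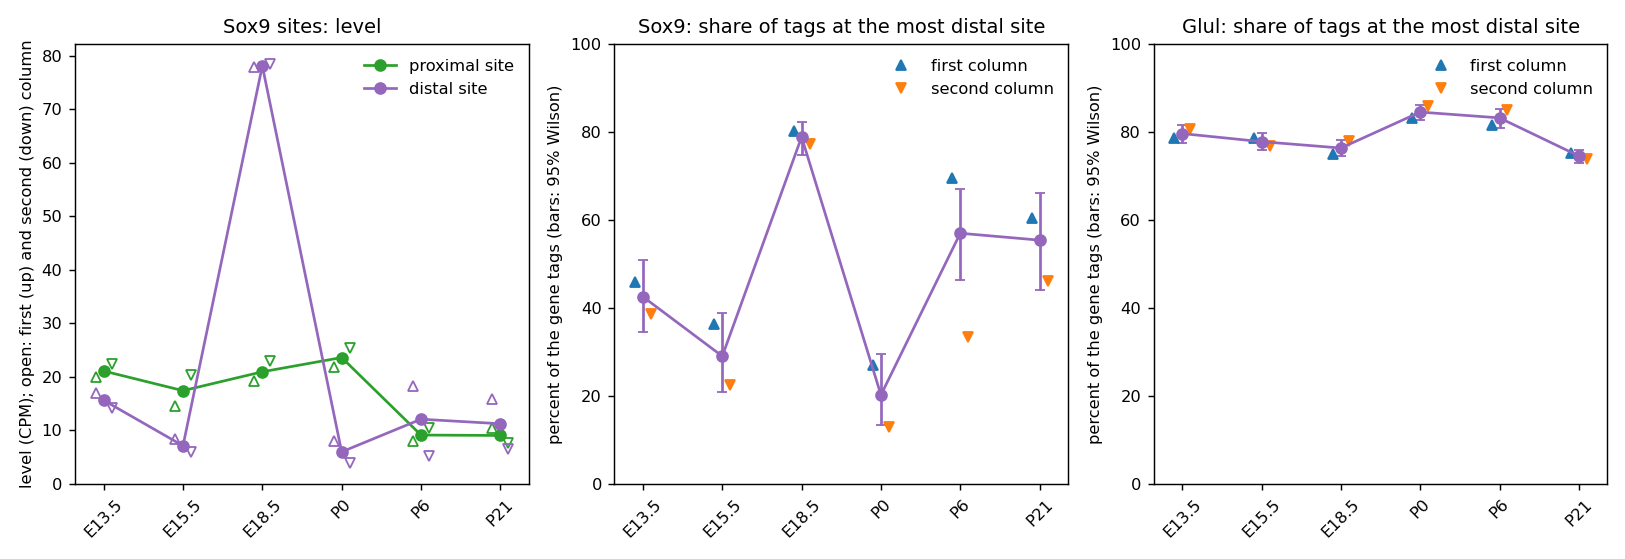
Left, level in CPM (y axis) of the proximal and distal sites of Sox9 at each stage, filled points for both columns added and open triangles for each column. Middle and right, percent of gene tags at the most distal site of Sox9 and Glul (y axis, 0 to 100), with Wilson 95% intervals and the columns as triangles. The Sox9 share reached 78.9% at E18.5 and 20.2% at P0, while that of Glul stayed between 74.5% and 84.5%.

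Glul kept most of its tags at the same 3′ end at all 6 stages. Its sites lay 104, 554, 649, 1309 and 1482 bases past the coding end and took 17.99%, 1.48%, 1.39%, 0.772% and 78.4% of its tags. The most distal site held 79.6%, 77.8%, 76.3%, 84.5%, 83.2% and 74.5% of the tags from E13.5 to P21, and the first site 17.3%, 19.4%, 21.2%, 13.4%, 14.8% and 19.04%. The distal share was thus highest at P0 and P6 and lowest at P21, a range between 74.5% and 84.5%. The third site gained at P21, from 0.571% (0.277 to 1.17) at P6 to 2.95% (2.43 to 3.57). The second site also gained, from 0.979% (0.561 to 1.703) at P6 to 2.22% (1.777 to 2.77) at P21. Its share at E18.5, 1.48% (1.04 to 2.09), overlapped that of P21. The fourth had 0.408% (0.174 to 0.951) at P6 and 1.26% (0.933 to 1.69) at P21, with overlapping intervals. It had 0.952% (0.578 to 1.56) at E13.5. The transcript is rich in A just after the second site, and priming inside the RNA there was not tested.

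A test of whether a site moved with stage order beyond its gene (edgeR diffSpliceDGE) covered 6 sites of Sox9, Glul and Aqp4. None was called and none had an unadjusted p under 0.05, with the lowest adjusted p at 0.99997. The test was conservative on simulated data, so the lack of a call has limited weight. Over all genes 63 of 15996 sites were called, or 0.394%, and 938 had an unadjusted p under 0.05. With voom and limma diffSplice, which was added after seeing the data, 327 sites of all genes were called and none of the 6, whose lowest adjusted p was 0.925. The test follows a straight line over 6 stages, so a site that stands out at 1 stage counts there as spread.

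Step by step, changes of 2-fold or more between consecutive stages were counted for genes with at least 20 tags in either stage. These counts were set after the values had been seen and have no test. Aqp4 (3 tags at P6), Slc14a1 (8 tags at P0) and Kcnj10 (7 tags at E13.5) entered a step through its higher stage alone. Their places in the counts therefore carry little weight. From P6 to P21, 5 of 10 genes rose by that much with at least 20 tags, namely Clu, Aqp4, Glul, Kcnj10 and Slc14a1, against 10.03% of 13121 genes. From P0 to P6 they were 2 of 9, Rlbp1 and Slc14a1, against 10.1% of 12838 genes. From E13.5 to E15.5, 1 of 8 rose by that much, Kcnj10, against 5.73% of 12559 genes. From E15.5 to E18.5 they were 2 of 8, Sox9 and Kcnj10, against 5.37% of 12911 genes. From E18.5 to P0, 0 of 8 rose and 1, Sox9, was lower by that much, against 2.16% and 5.54% of 12800 genes. Rlbp1, which led at P6, hardly moved afterwards, with a fold of 1.08 (1.01 to 1.14) to P21.

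**Figure D3:**
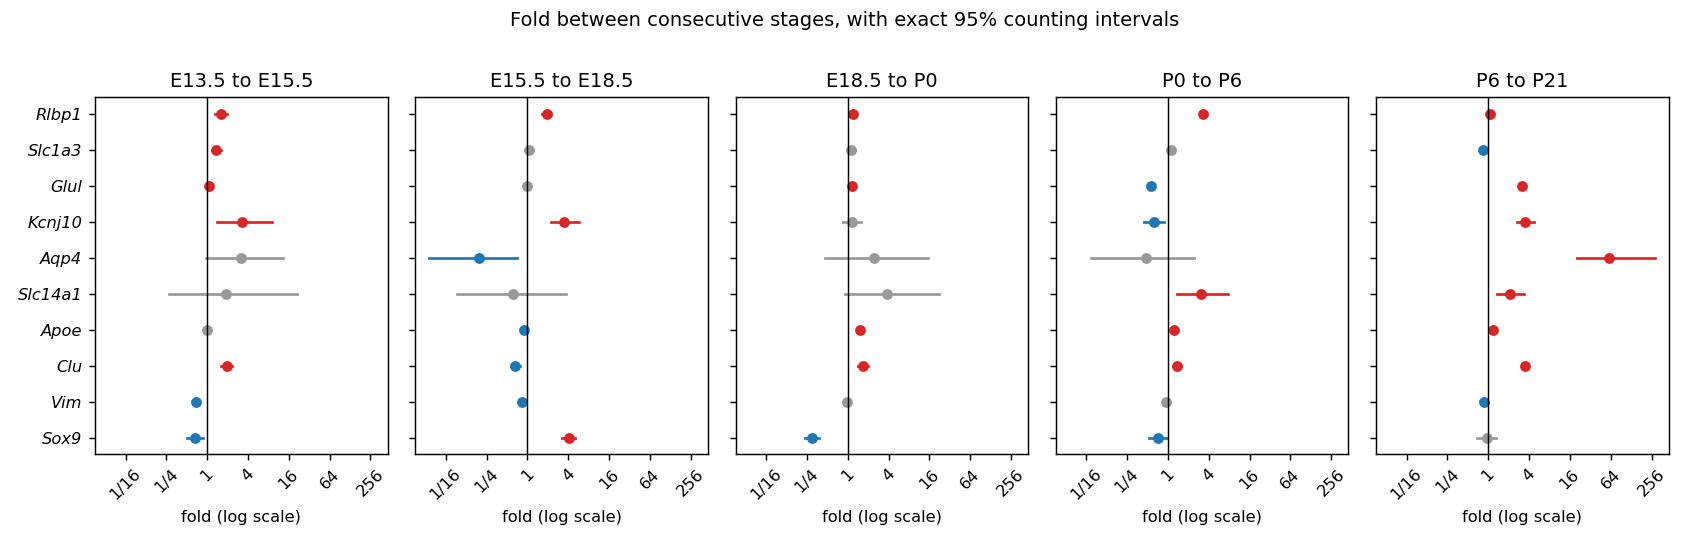
Fold between consecutive stages (x axis, log scale) for each gene (y axis), with exact 95% counting intervals, in 5 panels from E13.5 to P21. Red points have an interval above 1, blue points below 1 and grey points across 1. Rlbp1 lies at 3.33 from P0 to P6, and Glul lies at 0.565 from P0 to P6 and at 3.10 from P6 to P21.

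Partners of the glial genes were taken as lists. For these lists and those below, the shares over all 14403 genes tested in edgeR were 17.0% rising and 13.1% falling. Of 11 measured partners in glutamate, potassium and water handling, 7 rose, 0 fell and 4 did not pass in edgeR, with a median fitted log2 change of 1.62. Slc1a2, the glutamate transporter GLT-1, which retinal neurons also express, went from 26.0 to 272 CPM (3.46 ± 0.34, adjusted p = 0.00249). Slc1a1, a neuronal glutamate transporter, went from 6.30 to 69.9 CPM (3.95 ± 0.61). Slc38a3, which exports glutamine, went from 94.5 to 420 CPM (2.08 ± 0.21). Aqp1, another water channel, stood at 5.67 to 11.01 CPM up to P6 and at 100.3 CPM at P21 (3.61, adjusted p = 0.0320), late as Aqp4 was. Dag1, dystroglycan, of the complex that anchors Aqp4, had 155 CPM at E13.5 and 111 CPM at P21 and did not pass, and Dmd, dystrophin, rose (1.41 ± 0.38).

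Of 8 measured genes of retinoid handling, 4 rose, 1 fell and 3 did not pass, with a median of 1.92. Rgr, a retinal-isomerising opsin of Müller glia and pigment epithelium, went from 3.29 to 107 CPM (4.59 ± 0.76, adjusted p = 0.00660). Rdh5 and Dhrs3, both retinol dehydrogenases or reductases, rose by 3.48 ± 0.56 and 3.42 ± 0.52. Rbp3, the retinoid carrier that photoreceptors secrete, went from 95.8 to 1051 CPM (3.32 ± 0.23). Rgr differed in time from Rlbp1: it had 24.4 CPM at P6 and 107 CPM at P21, where Rlbp1 had nearly reached its last level by P6.

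Lipoprotein receptors and lipid exporters, partners of Apoe and Clu, counted 3 rising, 0 falling and 6 that did not pass of 9 (median 0.93). Abca1, which loads lipid onto apolipoproteins, had 26.1 CPM at P0, 117 CPM at P6 and 42.2 CPM at P21 (3.21 ± 0.97, adjusted p = 0.0430). Abcg1 (1.98 ± 0.31) and the receptor Vldlr (1.65 ± 0.25) also rose.

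Genes of glial fate, mostly transcription factors, and of the Notch pathway, which keeps cells from becoming neurons, made a list of 14. Of these, 3 rose, 6 fell and 5 did not pass, with a median of -1.26. Those that rose were the nuclear factors Nfia (13.4 to 91.5 CPM, 2.35 ± 0.51) and Nfix (3.01 to 60.6 CPM, 4.56 ± 1.02) and the Notch target Hey2 (2.48 ± 0.79). Sox2, Lhx2, Hes1, Id1, Id3 and Zfp36l1 fell, among them Hes1, a Notch target, from 192 to 44.7 CPM (-2.27 ± 0.45). Rax, the most abundant of the list, had 337 and 186 CPM at E13.5 and P21 and did not pass. Sox8, a relative of Sox9, stood at 18.1, 30.6, 91.6, 69.9, 24.7 and 14.0 CPM and did not pass. It was highest at E18.5, as Sox9 was, but its level at P0 was still 69.9 CPM where that of Sox9 was 29.6 CPM.

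Of 15 further genes of Müller glia, 5 rose, 1 fell and 9 did not pass (median 1.11). Mlc1, a membrane protein of glial endfeet, went from 6.85 to 165 CPM (4.50 ± 0.64, adjusted p = 0.00453), with 62.6 CPM at P6. Abca8a had 7.89 CPM at P6 and 119 CPM at P21 (4.65 ± 1.13). Timp3, an inhibitor of matrix proteases, rose (3.11 ± 0.76), as did Car2, carbonic anhydrase 2 (2.64 ± 0.52), and Gpr37. Cp, ceruloplasmin, fell by 0.47 on the log2 scale, and Gnai2, the most abundant of the list, had 716 and 434 CPM at E13.5 and P21 and did not pass. Mlc1 and Abca8a were highest at P21, while Car2 had reached 86.6 CPM and Gpr37 70.2 CPM by E18.5.

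**Figure D4:**
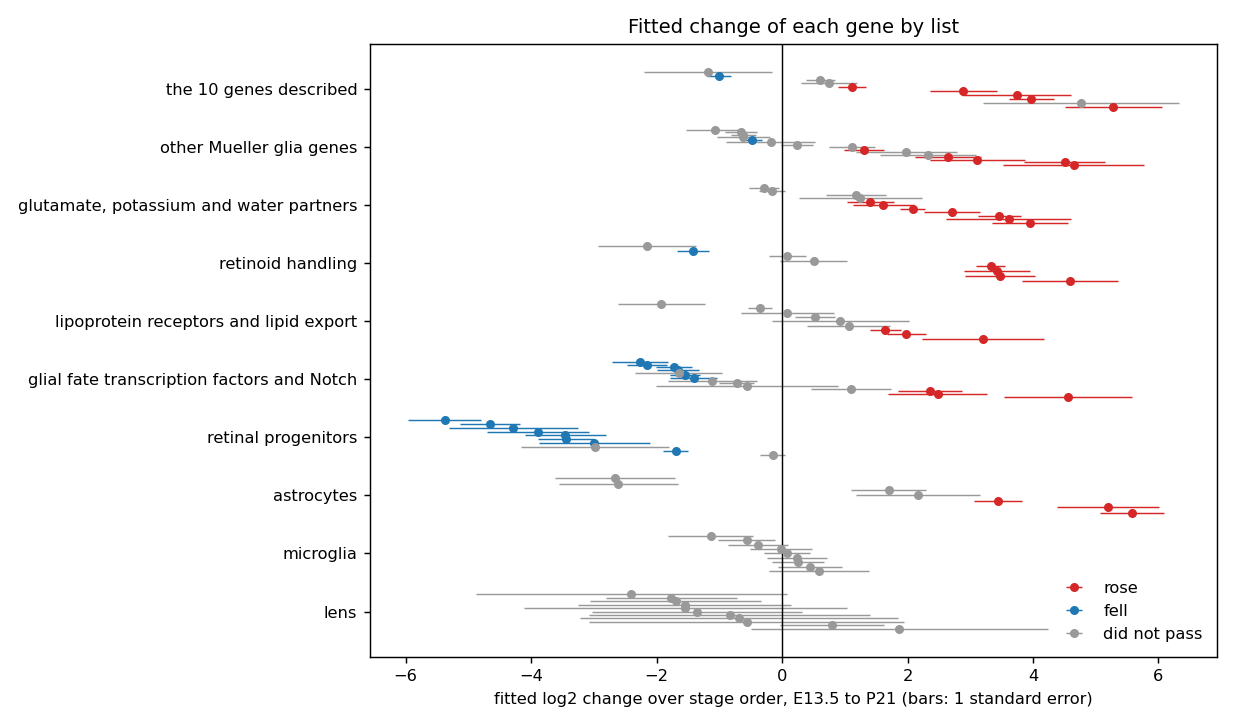
Fitted log2 change over stage order (x axis, bars of 1 standard error) of each gene, by list (y axis), with red for genes that rose, blue for those that fell and grey for those that did not pass. The 10 Müller glia genes run from -1.18 for Sox9 to 5.28 for Slc14a1.

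Other cell types of the tissue changed beside the glial genes. Of 10 genes of retinal neurons 8 rose and 1 fell (median 3.75). Of 10 progenitor genes, 8 fell and 0 rose (median -3.45), and their summed level went from 4225 to 876 CPM, beside the fall of Vim. At P21 that sum was 1276 CPM in the first column and 475 CPM in the second, where Vim had 182 and 150.1 CPM. Of 7 measured astrocyte genes 3 rose, Gfap (5.20 ± 0.81), S100b (5.58 ± 0.52) and Aldoc (3.44 ± 0.39), and the list summed to 117 CPM at E13.5, 146 at P0, 319 at P6 and 560 CPM at P21, of which Aldoc made 437 CPM. The other 4 did not pass, among them Gja1, a gap junction protein (52.0 CPM at the first stage, 9.59 CPM at the last), and Fgfr3 (17.5 and 1.37 CPM). In this list 2 genes fell at an unadjusted p under 0.05 and 1 in DESeq2. Gfap alone had 15.1 CPM at P0, 24.2 at P6 and 35.1 CPM at P21. Of 9 vascular genes 3 rose, Tek, Flt1 and Rgs5, and the sum went from 246 to 542 CPM. Of the 11 lens genes, 0 passed in edgeR, 0 had an unadjusted p under 0.05 and 0 passed in DESeq2. Of 4 measured genes of mesenchyme and sclera, 0 passed in either tool and 2 fell at an unadjusted p under 0.05. Over all 14403 genes tested, 3341 rose and 2993 fell at that unadjusted p. No measured gene of these lists was at 0 tags in a stage. The part of these cells in the levels of genes they share with Müller glia, such as Glul, Aqp4, Apoe and Clu, was not tested.

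The genes whose levels ran most like a given glial gene were ranked by Pearson's r of log2(CPM + 1) over the 6 stages, among 9769 genes of mean level 20 CPM or more, as a description. For Glul these were Stat5b (r = 0.995), Ggct (0.984) and Pip4k2a (0.981), each lowest at P6 and highest at P21, and 11 genes reached 0.95. Stat5b, for example, stood at 66.4 CPM at P0, 47.6 CPM at P6 and 97.3 CPM at P21. For Rlbp1 they were Padi2 (0.999), Acsl1 (0.997) and Gm43584 (0.996), and 470 genes reached 0.95. Padi2 stood at 3.01, 6.60, 12.9, 17.0, 65.1 and 63.9 CPM. For Aqp4 they were Ttc39c (0.9999), Zfp180 (0.983) and Stk35 (0.982), and 41 genes reached 0.95. Aqp4 had 3 to 13 tags at each stage up to P6, so its r rests largely on P21. The size of the step differed between these genes. From P6 to P21, Stk35 went from 71.8 to 499 CPM, Ttc39c from 26.9 to 117 CPM and Zfp180 only from 73.5 to 89.9 CPM. All these values come from the same 6 libraries, which differ in age, depth and lens content together.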

How the data were processed

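The deposited table gives counts of tags per poly(A) site in 12 columns, 2 per stage, and 1 enrichment score per site, per the file headers. The score was computed by the authors over the whole series and was not used in any test. The submitters' processing notes name BWA 0.7.5a-r405 and the mm10 build. Site clustering, duplicate removal and the meaning of the 2 columns are not given in the sources used here, and no test took the columns as replicates. Sites were placed on GENCODE M21 genes by their 3′ edge, and 29105 of 32688 were given to a gene. Counts per gene with a CPM of at least 1 in 2 libraries or more went into a quasi-likelihood F test of edgeR 4.0.16 (R 4.3.3) after TMM scaling, with 1 slope on stage order and 4 residual degrees of freedom. The SE was obtained from the change and its F (change over root F). The spread is that of single samples around a line. Site choice used sites with at least 5% of the tags of a gene and a mean of 20 tags per library. Fold and CPM intervals are exact (95%) and shares have Wilson intervals. PCR reads are not independent molecules, so they cover counting error only. Scripts were tested on simulated data. Alternatives used DESeq2 1.42.0, total-tag scaling, other filters, flanks of 0 and 5000 bases, single columns, days after conception (birth taken as day 19), P6 and P21 against earlier stages, and each stage left out. Signals were searched in transcripts, and BLAST 2.17.0 was run against transcripts only. All 10 genes are named. From each other list the rule named up to 3 called genes of largest change and the one of highest mean CPM, and further genes were named after their values had been seen. The genes and lists were chosen with earlier results of these data known. A few genes of the lists are counted but not reported here by name. Sequences of genes on chromosome 18 are not shown.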

Additional observations from a re-analysis of the deposited data

How the results depend on the processing

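Across 18 alternatives the fitted log2 change of Rlbp1 ran from 2.43 to 6.07 and that of Slc14a1 from 3.33 to 6.14, and both kept their call in each. Slc1a3 (0.25 to 0.79) and Sox9 (-1.71 to -0.47) passed in none. The count of rising genes among the 10 was 3 without E15.5 and P0 and ran from 2 (without P21) to 7 (without P6) when 1 stage was left out, and that of falling genes ran from 0 to 1, with 0 with time in days and 0 with P6 and P21 against the earlier stages, where Kcnj10 (adjusted p = 0.266) and Vim (adjusted p = 0.157) were lost. Kcnj10 was also lost with time in days (adjusted p = 0.0614). Without P21, Aqp4 turned to -1.10 and Glul to -0.24. Aqp4 passed in the second columns (8.46, adjusted p = 0.0261), at its strongest site (4.78, adjusted p = 0.0458) and without P6 (5.21, adjusted p = 0.0338). Its range was -1.10 to 6.36 with 1 stage left out, and that of Glul -0.24 to 1.10. Aqp4 had no value with no downstream flank, since both its sites lie past the gene, or at a CPM minimum of 5. Over all genes, the rising count ran from 887 to 2651 and the falling count from 424 to 2403 when a stage was left out, and 1093 fell without E15.5 and P0. The count of sites called over all genes was 132 with sites of 1% of the tags or more, 27 in the first columns, 40 with time in days, 327 with voom and limma diffSplice and 0 to 104 with a stage left out. The causes were not tested. Total-tag scaling moved the median of all genes by -0.006. Depth limits Aqp4 before P21 and Slc14a1 before P6, where a stage held 2 to 13 tags. No paired analysis was possible because the labels give 1 sample per stage and no replicate numbers.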
